A study of Bos taurus with 3 samples.

Results

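Proteins made for secretion enter the endoplasmic reticulum (ER), where they are folded and given N-linked sugars, and are then carried in coated vesicles through the Golgi apparatus. The genes of this ER and Golgi secretory machinery were taken by symbol from the gene tables of 3 bovine mammary libraries. The symbols were those of the signal recognition particle, the SEC61 translocon and the TRAP complex, signal peptidase, oligosaccharyltransferase, the main ER chaperones and disulfide isomerases, XBP1, ATF4 and ATF6, the COPII and COPI coats, the ARF GTPases, the TMED, LMAN and KDELR receptors and the golgins. This gave 68 genes of the 9154 listed in any library. The rule itself uses symbols and no expression value. The rule also covers symbols such as CANX, HYOU1 and SEC63, but no listed gene was found under them, so their levels were not assessed.

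Mammary tissue was taken by biopsy from 18 Holstein cows of the second parity, with 6 animals at each of 3 times: 35 days before calving (written −35 d), 7 days before it (−7 d) and 3 days after it (+3 d). Tissue was combined across the 6 animals sampled together, RNA was isolated from the pool, and each pool gave 1 digital gene expression (DGE) library. The labels name no treatment, so the groups differ by time relative to calving. The question was how gene expression differs between the dry period, the approach to parturition and the onset of milk secretion, and it was addressed by setting −7 d against −35 d (stage I), +3 d against −7 d (stage II), and +3 d against −35 d.

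In the lactating mammary gland, most secreted protein is made by the luminal epithelial cells and leaves them along this route. Caseins and whey proteins are threaded into the ER by the SEC61 channel, folded with the help of lumenal chaperones and disulfide isomerases, and moved to the Golgi in COPII vesicles, while COPI vesicles return escaped ER proteins and membrane. When unfolded protein builds up in the ER, the unfolded protein response, which acts through XBP1, ATF4 and ATF6, can raise the expression of many of these same genes.

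DGE counts a short tag next to a CATG site of each transcript, so the values are tag counts, or counts scaled to one fixed number of clean tags per library (TPM, the authors' unit). The clean tag totals were 5914422 at −35 d, 5593237 at −7 d and 5845821 at +3 d. All 68 genes had at least 1 tag at −35 d and at +3 d, and 66 had one at −7 d. The median count per gene was 266, 244 and 190 tags in the same order. At this depth 3 tags, the one-sided 95% upper limit for a count of 0, correspond to 0.507, 0.536 and 0.513 TPM. With 1 library per time point there was no replicate check. The intervals below (95%) cover counting error only, and the tests compare these libraries, not the conditions. Levels were compared between libraries and not between genes, since the number of tags also depends on the CATG sites of a transcript. Because the libraries were made from whole tissue, fewer cells of a type and less RNA per cell cannot be told apart.

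The 68 genes together received 42227, 43909 and 27939 tags at −35 d, −7 d and +3 d. These were 0.714% (Wilson interval 0.707 to 0.721), 0.785% (0.778 to 0.792) and 0.478% (0.472 to 0.484) of clean tags. The share was thus highest at −7 d and lowest at +3 d, with no overlap between the intervals. The 6 milk protein genes (the caseins CSN1S1, CSN1S2, CSN2 and CSN3, and the whey proteins PAEP and LALBA) moved the other way after parturition. Their summed level was 3488 TPM at −35 d, 41525 at −7 d and 231338 at +3 d. For each secretory machinery tag there were 0.489, 5.29 and 48.4 milk protein tags in the same order.

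Values in TPM share out a fixed total, so they depend on what else a library holds. The median log2 ratio of all genes averaging 5 TPM or more was −0.16 in stage I, −0.34 in stage II and −0.52 over the whole interval. Each ratio was therefore also computed after TMM scaling, which sets the bulk of genes near 0 and moved all log2 ratios by 0.19, 0.31 and 0.50. Leaving the 5 milk protein genes that each held over 1% of a library out of the totals moved them by 0.06, 0.31 and 0.36, less than TMM in stage I and over the whole interval. Without these 5 genes, the secretory machinery held 1.78%, 2.11% and 1.57% of the tags on listed genes at −35 d, −7 d and +3 d. The order of the libraries remained −7 d, −35 d, +3 d on this base.

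**Figure D1:**
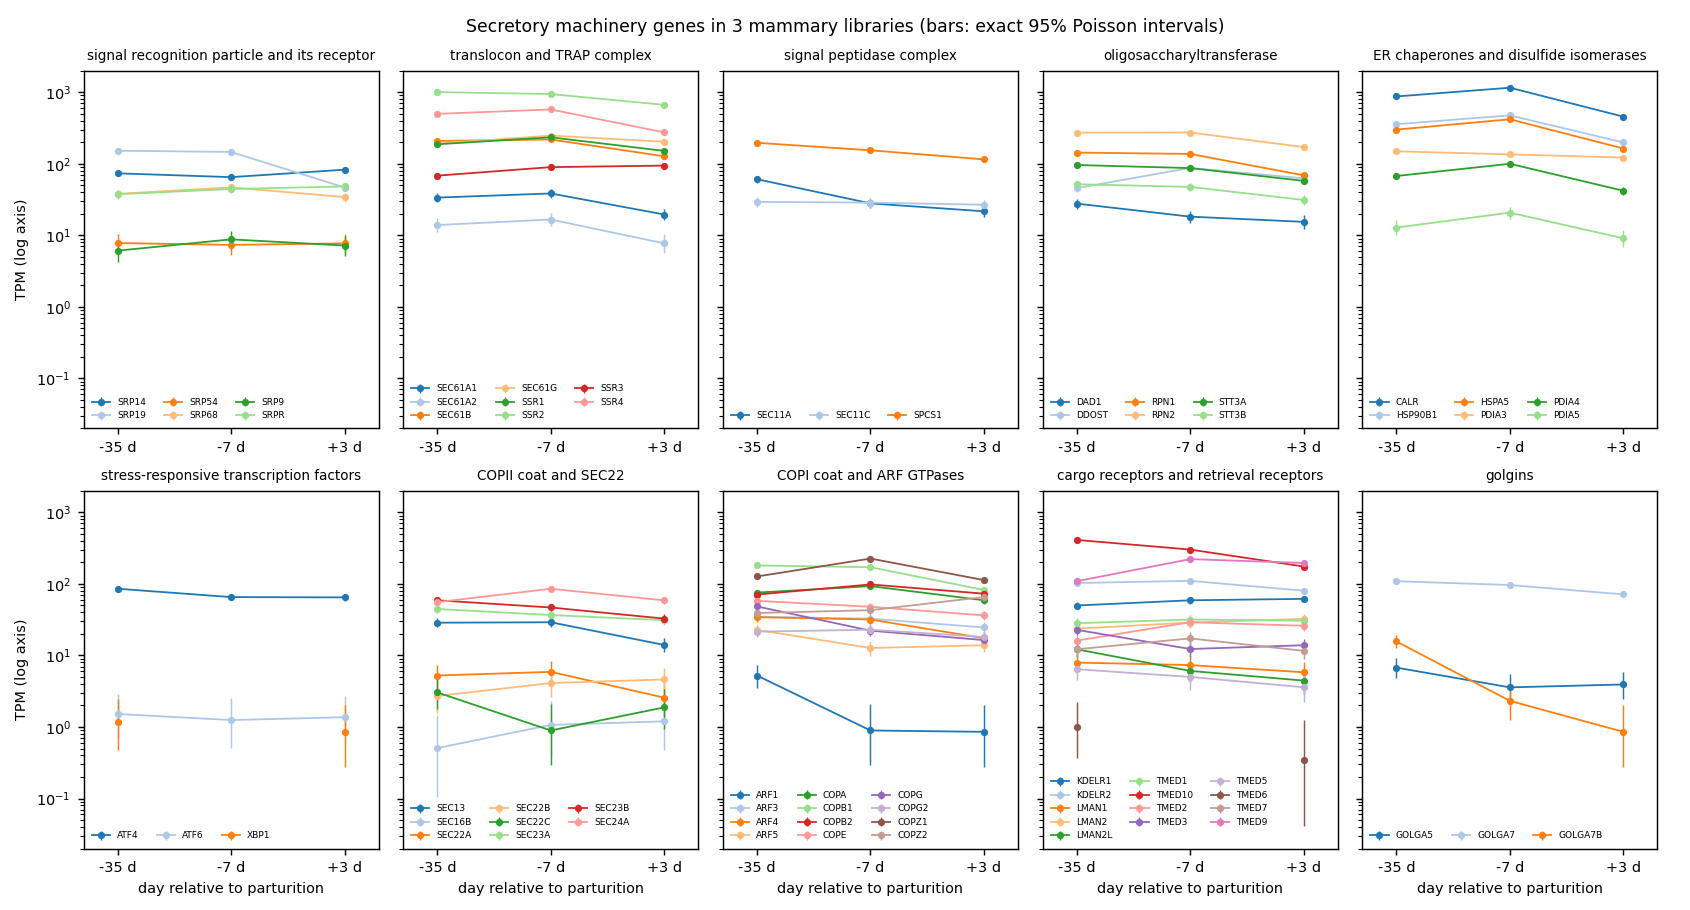
Level of each of the 68 genes (TPM, log axis) against the day relative to parturition, in 10 panels by role; each line is a gene, and vertical bars are exact 95% Poisson intervals. A count of 0 (XBP1 and TMED6 at −7 d) is not drawn; 5 of the 6 genes in the panel of ER chaperones and disulfide isomerases peaked at −7 d, whereas GOLGA7B dropped from 15.7 to 2.32 to 0.855 TPM.

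A gene was called at a false discovery rate (FDR) of at most 0.001 and an at least 2-fold change in TPM, by the Audic-Claverie test adjusted over all genes tested. In stage I, 1 of the 68 genes was called higher, where 2.62% of all 8967 genes tested were, and 4 were called lower (5.88%, against 6.45% of all genes). In stage II none was called higher, against 3.12% of all 8784 genes tested, and 10 were called lower (14.7%, against 10.4%). Between +3 d and −35 d none was called higher, against 2.33% of all 8988 genes tested, and 10 were called lower (14.7%, against 16.3%). The shares of calls in the 68 genes were thus near those of all genes tested, with the widest gap in stage II. That gap depended on the genes counted. Among genes averaging at least 5 TPM over the 2 libraries compared, 3 of 61 were called lower in stage I, beside 488 of 5971 of all genes. These were 10 of 57 beside 838 of 5730 in stage II, and 9 of 60 beside 1305 of 5906 between +3 d and −35 d. On this base the gap was widest between +3 d and −35 d, where the members were called lower less often. In all, 18 of the 68 genes were called in at least 1 comparison and 50 in none. The matching share of all genes was not computed, so this count cannot be set against a background.

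After TMM scaling, 4 genes were called higher and 2 lower in stage I, where 4.22% of all genes were higher and 3.90% lower. In stage II none was called higher and 3 lower, beside 5.87% and 4.90% of all genes. Between +3 d and −35 d 3 were called higher and 3 lower, beside 6.23% and 4.94%. The scaling therefore ended most of the lower calls and brought higher ones. Under an assumed biological coefficient of variation of 0.2 (edgeR exact test), 1 gene was called in stage I, none in stage II and 1 between +3 d and −35 d, where 0.602%, 1.82% and 1.74% of all genes were. The gene was GOLGA7B both times.

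The median log2 ratio of the 65 genes averaging 1 TPM or more (0.5 tags added) was 0.01 in stage I, where that of all 7570 such genes was −0.19. It was −0.44 in stage II beside −0.31 for all genes, and −0.62 between +3 d and −35 d beside −0.53. Of these 65 genes, 47.7% had their highest level at −35 d, 41.5% at −7 d and 10.8% at +3 d, beside 53.7%, 30.3% and 16% of all genes. After TMM scaling the shares were 24.6%, 49.2% and 26.2%, beside 33.3%, 32.1% and 34.6%. The share with the peak at −7 d was above that of all genes under both scalings, which is a description without a test, while the most frequent peak was at −35 d on clean tag totals and at −7 d after TMM scaling.

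The clearest group was that of the 6 ER chaperones and disulfide isomerases taken by the rule, which are among the lumenal proteins that fold new secretory chains. Their summed level was 1757 TPM at −35 d, 2301 TPM at −7 d and 989 TPM at +3 d. As a share of the tags on the 68 genes, which no scaling of the libraries can alter, they took 24.6% (Wilson interval 24.2 to 25), 29.3% (28.9 to 29.7) and 20.7% (20.2 to 21.2) at the 3 times. Of the 6 genes, 5 were called lower in stage II (83.3%, beside 10.4% of all genes) and none was called in stage I or between +3 d and −35 d. After TMM scaling 2 of the 6 were called lower in stage II (33.3%, beside 4.90% of all genes), and none was under the assumed coefficient of variation. The group median log2 ratio was 0.44, −1.25 and −0.76 in the 3 comparisons, and 0.63, −0.95 and −0.27 after TMM scaling. This profile is that of the 6 genes and not of ER folding factors in general. The 41 ER folding factors outside the rule, described below, summed to 2999.6, 2671 and 2060.4 TPM at −35 d, −7 d and +3 d, with no peak at −7 d.

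**Figure D2:**
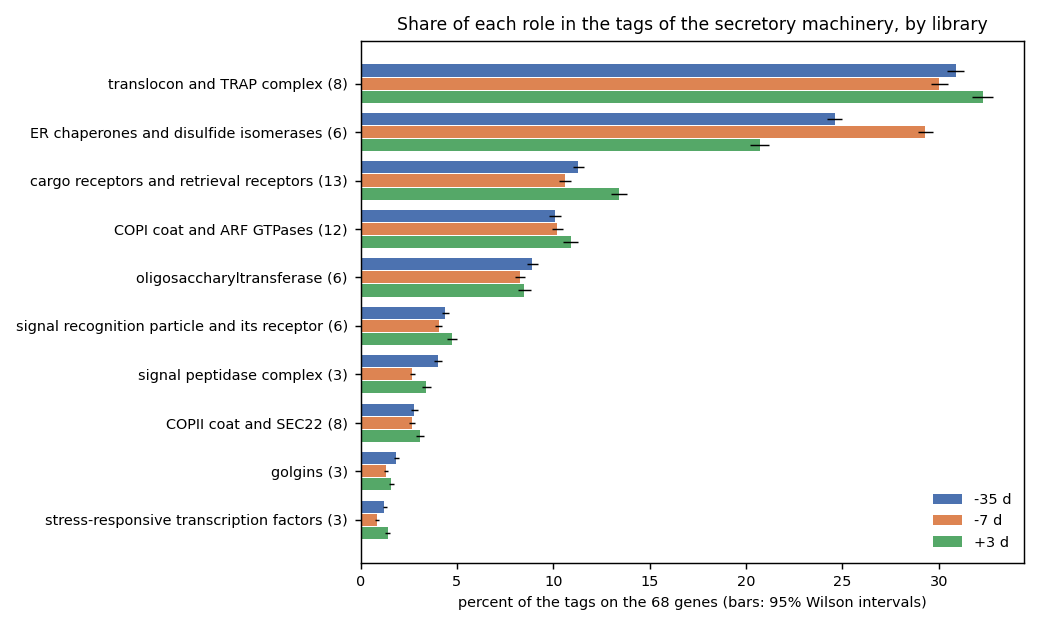
Share of each role (number of genes in brackets) in the tags on the 68 genes, in percent, for the 3 libraries; bars carry 95% Wilson intervals. The 6 ER chaperones and disulfide isomerases taken by the rule rise from 24.6% to 29.3% and drop to 20.7%, while the translocon and TRAP complex stay between 30.0% and 32.3%.

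CALR encodes calreticulin, the lumenal lectin that holds newly glycosylated proteins until they are folded. It had 5151 tags (871 TPM) at −35 d, 6453 (1154 TPM) at −7 d and 2657 (455 TPM) at +3 d. The 3 values were separated by far more than counting error, with the peak at −7 d. The log2 ratio was 0.41 in stage I (interval 0.35 to 0.46), below the 2-fold limit, and −1.34 in stage II (−1.41 to −1.28). CALR was still called lower in stage II after TMM scaling, at −1.04.

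HSPA5 (BiP, the ER member of the HSP70 family) keeps unfolded chains soluble and restrains the stress sensors. Its level was 299.6 TPM at −35 d, 418 TPM at −7 d and 163 TPM at +3 d. The order of the libraries was that of CALR, and the size of the changes was similar. The log2 ratio was 0.48 (0.39 to 0.57) in stage I and −1.35 (−1.46 to −1.24) in stage II, the latter called also after TMM scaling at −1.05.

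HSP90B1 (GRP94) is the ER member of the HSP90 family. It stood at 357 TPM, 474 TPM and 198 TPM at −35 d, −7 d and +3 d. Its fall of stage II was called at a log2 ratio of −1.26 (−1.36 to −1.16), and lay just under the limit after TMM scaling at −0.95. PDIA4 (ERp72) and PDIA5 are disulfide isomerases, which form and rearrange disulfide bonds. PDIA4 was at 67.3, 99.8 and 41.9 TPM, with a log2 ratio of −1.25 (−1.47 to −1.03) in stage II. PDIA5, with far fewer tags (76, 116 and 53), was at 12.8, 20.7 and 9.07 TPM, with −1.19 (−1.69 to −0.71). Both peaked at −7 d, both were called lower in stage II, and neither was called after TMM scaling (−0.94 and −0.89).

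PDIA3 (ERp57), the isomerase that works together with calreticulin, differed from the other 5 genes. It had 149 TPM at −35 d, 135 TPM at −7 d and 122 TPM at +3 d. Its levels lay close together, its log2 ratio was −0.14 (−0.28 to 0.00) in stage I and −0.15 (−0.30 to 0.00) in stage II, or 0.05 and 0.16 after TMM scaling, and it was called in no comparison. The stage II interval of PDIA3 did not overlap that of any of the other 5 genes.

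The 3 transcription factors of the unfolded protein response were called in no comparison. ATF4, the translationally induced factor of the PERK branch, was at 85.6 TPM at −35 d, 65.4 TPM at −7 d and 64.8 TPM at +3 d. On clean tag totals its level was highest at −35 d and nearly equal at −7 d and +3 d, whereas after TMM scaling it was highest at +3 d. The log2 ratio was −0.39 (−0.58 to −0.19) in stage I and −0.01 (−0.22 to 0.20) in stage II, or −0.20 and 0.29 after TMM scaling. ATF6, the membrane-bound factor released by cleavage in the Golgi, had 9, 7 and 8 tags. XBP1, the factor made active by IRE1 splicing, had 7 tags at −35 d, none at −7 d and 5 at +3 d. The XBP1 counts differed at an FDR of 0.0279 in stage I and 0.0753 in stage II by the Audic-Claverie test, short of the limit of 0.001, and those of ATF6 at an FDR of 0.797 and 0.917. With so few tags only large differences could pass, and a tag count holds no information on XBP1 splicing or on ATF6 cleavage.

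Proteins are brought to the ER by the signal recognition particle (SRP) and its receptor. SRP19, which helps to assemble the particle, was the only one of the 6 genes of this role that was called. This was 16.7% of the role called lower in stage II and between +3 d and −35 d, beside 10.4% and 16.3% of all genes. After TMM scaling it was again 16.7%, beside 4.90% and 4.94%. SRP19 had 899, 819 and 272 tags at −35 d, −7 d and +3 d, or 152, 146 and 46.5 TPM. Both libraries before parturition lay well above that after it, and did not differ beyond counting error from each other (log2 ratio −0.05, −0.19 to 0.08). The log2 ratio was −1.65 (−1.86 to −1.45) in stage II and −1.71 (−1.91 to −1.51) between +3 d and −35 d, and both calls held after TMM scaling, at −1.35 and −1.21.

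The other genes of this role fell less in stage II or not at all, and none was called. SRP14, which binds the Alu part of the SRP RNA together with SRP9, was at 73.4, 64.9 and 82.5 TPM. SRP54, the GTPase that binds the signal sequence, was at 7.78, 7.33 and 7.70 TPM. SRPR, the receptor subunit that docks the particle at the ER, was at 37.4, 44.3 and 48.1 TPM. None of these 3 was lower at +3 d than at −7 d by its log2 ratio, which was 0.35 (0.15 to 0.55) for SRP14, 0.07 (−0.57 to 0.72) for SRP54 and 0.12 (−0.14 to 0.37) for SRPR. SRP68 and SRP9 were at −0.45 (−0.72 to −0.18) and −0.29 (−0.92 to 0.34). The role median was −0.11 in stage II and 0.20 after TMM scaling.

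The translocon and TRAP complex, through which nascent chains enter the ER, took the largest share of the tags, from 30.0% to 32.3% in the 3 libraries. SSR2, the TRAP beta subunit, was its most abundant tag source, with 1003 TPM at −35 d, 940.4 TPM at −7 d and 665 TPM at +3 d. It was lowest at +3 d, with a log2 ratio of −0.50 (−0.56 to −0.44) in stage II, and was called in no comparison. Without it the 68 genes held 0.614%, 0.691% and 0.411% of clean tags, in the same order of libraries.

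Of the 8 genes of this role, 2 were called lower in stage II (25%, beside 10.4% of all genes) and none otherwise. SSR4, the TRAP delta subunit, was at 498, 573 and 274 TPM at −35 d, −7 d and +3 d, and fell in stage II with a log2 ratio of −1.07 (−1.15 to −0.98). SEC61A2, a second form of the channel subunit, was at 13.9, 16.6 and 7.70 TPM, and fell at a log2 ratio of −1.11 (−1.66 to −0.58). Both were highest at −7 d and lowest at +3 d, and both calls were lost after TMM scaling, at −0.76 and −0.80. SSR3, the TRAP gamma subunit, did not share the fall of stage II (log2 ratio 0.07, −0.11 to 0.25), at 68.1, 89.6 and 94.1 TPM. Its log2 ratio between +3 d and −35 d was 0.47 (0.28 to 0.65), and 0.96 after TMM scaling, in neither case called. The 4 TRAP subunits thus did not keep one ratio to each other, since the stage II intervals of SSR1 (−0.75 to −0.50), SSR3 (−0.11 to 0.25) and SSR4 (−1.15 to −0.98) do not overlap.

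Signal peptidase removes the signal sequence. SEC11A, one of its alternative catalytic subunits, had 359, 156 and 126 tags at −35 d, −7 d and +3 d, or 60.7, 27.9 and 21.6 TPM. The level at −35 d stood above both others. SEC11A was called lower in stage I at −1.12 (−1.40 to −0.85) and between +3 d and −35 d at −1.49 (−1.80 to −1.20), and neither call held after TMM scaling, which left both ratios just short of the 2-fold limit. SEC11C, the other catalytic form, was at 29.3, 28.6 and 26.7 TPM, and SPCS1, an accessory subunit, at 196, 154 and 115 TPM. Neither of these was called.

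Oligosaccharyltransferase transfers the sugar chain to asparagine residues of the entering protein. RPN1 (ribophorin I) was at 143 TPM at −35 d, 137 TPM at −7 d and 68.8 TPM at +3 d, and was called lower between +3 d and −35 d at −1.06 (−1.23 to −0.89), but not after TMM scaling (−0.56). Its levels before parturition were close together and the fall lay between −7 d and +3 d. RPN2 (ribophorin II) stood at 272, 273 and 171 TPM and was not called. DDOST, a structural subunit, had the highest stage I ratio in this role. It stood at 45.5 TPM at −35 d, 87.4 TPM at −7 d and 62.4 TPM at +3 d, with a stage I log2 ratio of 0.94 (0.73 to 1.16) just under the 2-fold limit, and it was called higher after TMM scaling at 1.13.

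COPII coats form the vesicles that leave the ER. SEC13, of the outer coat, was at 28.7, 29.1 and 14.0 TPM at −35 d, −7 d and +3 d, so that both libraries before parturition were about equal and that after it lower. It was called lower in stage II at −1.05 (−1.46 to −0.66) and between +3 d and −35 d at −1.04 (−1.43 to −0.65), and in neither after TMM scaling (−0.75 and −0.54). SEC24A, which selects cargo in the inner coat, was at 55.6, 85.5 and 58.8 TPM. It peaked at −7 d with a stage I log2 ratio of 0.62 (0.41 to 0.83) and was not called. The inner coat proteins SEC23A (44.6, 36.7 and 31.1 TPM) and SEC23B (59.0, 46.8 and 32.7 TPM) were likewise not called.

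COPI coats carry material back to the ER and between Golgi cisternae, and assemble on membranes through ARF GTPases. COPB1, the beta subunit, was at 181 TPM at −35 d, 171 TPM at −7 d and 82.3 TPM at +3 d. It was called lower in stage II at −1.06 (−1.22 to −0.90) and between +3 d and −35 d at −1.14 (−1.30 to −0.98), with neither call kept after TMM scaling (−0.75 and −0.64). COPG, the gamma subunit, was instead highest at −35 d, at 48.4 TPM, and at 22.2 and 16.4 TPM in the later libraries. It was called lower in stage I at −1.13 (−1.44 to −0.82) and between +3 d and −35 d at −1.56 (−1.91 to −1.22), and the latter call was kept after TMM scaling at −1.06. COPZ1, the zeta subunit, peaked before parturition, at 127, 226 and 113 TPM. Its stage I log2 ratio of 0.83 (0.70 to 0.96) was called only after TMM scaling (1.02), and its stage II ratio (interval −1.13 to −0.86) fell just short of the 2-fold limit.

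COPZ2, the second zeta form, was one of the 8 genes with the highest level at +3 d on clean tag totals (19 after TMM scaling), at 39.2, 42.9 and 65.5 TPM. Its log2 ratio between +3 d and −35 d was 0.74 (0.50 to 0.98), and it was called higher after TMM scaling at 1.24. ARF1, the GTPase that recruits the COPI coat, had 31, 5 and 5 tags at −35 d, −7 d and +3 d. These are few tags, with levels of 5.24, 0.894 and 0.855 TPM. The fall was called in stage I at −2.55 (−4.27 to −1.18) and between +3 d and −35 d at −2.62 (−4.34 to −1.24), and after TMM scaling in stage I only, at −2.36. The other ARF genes had more tags and were not called; ARF4, for example, was at 34.3, 31.8 and 17.4 TPM.

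**Figure D3:**
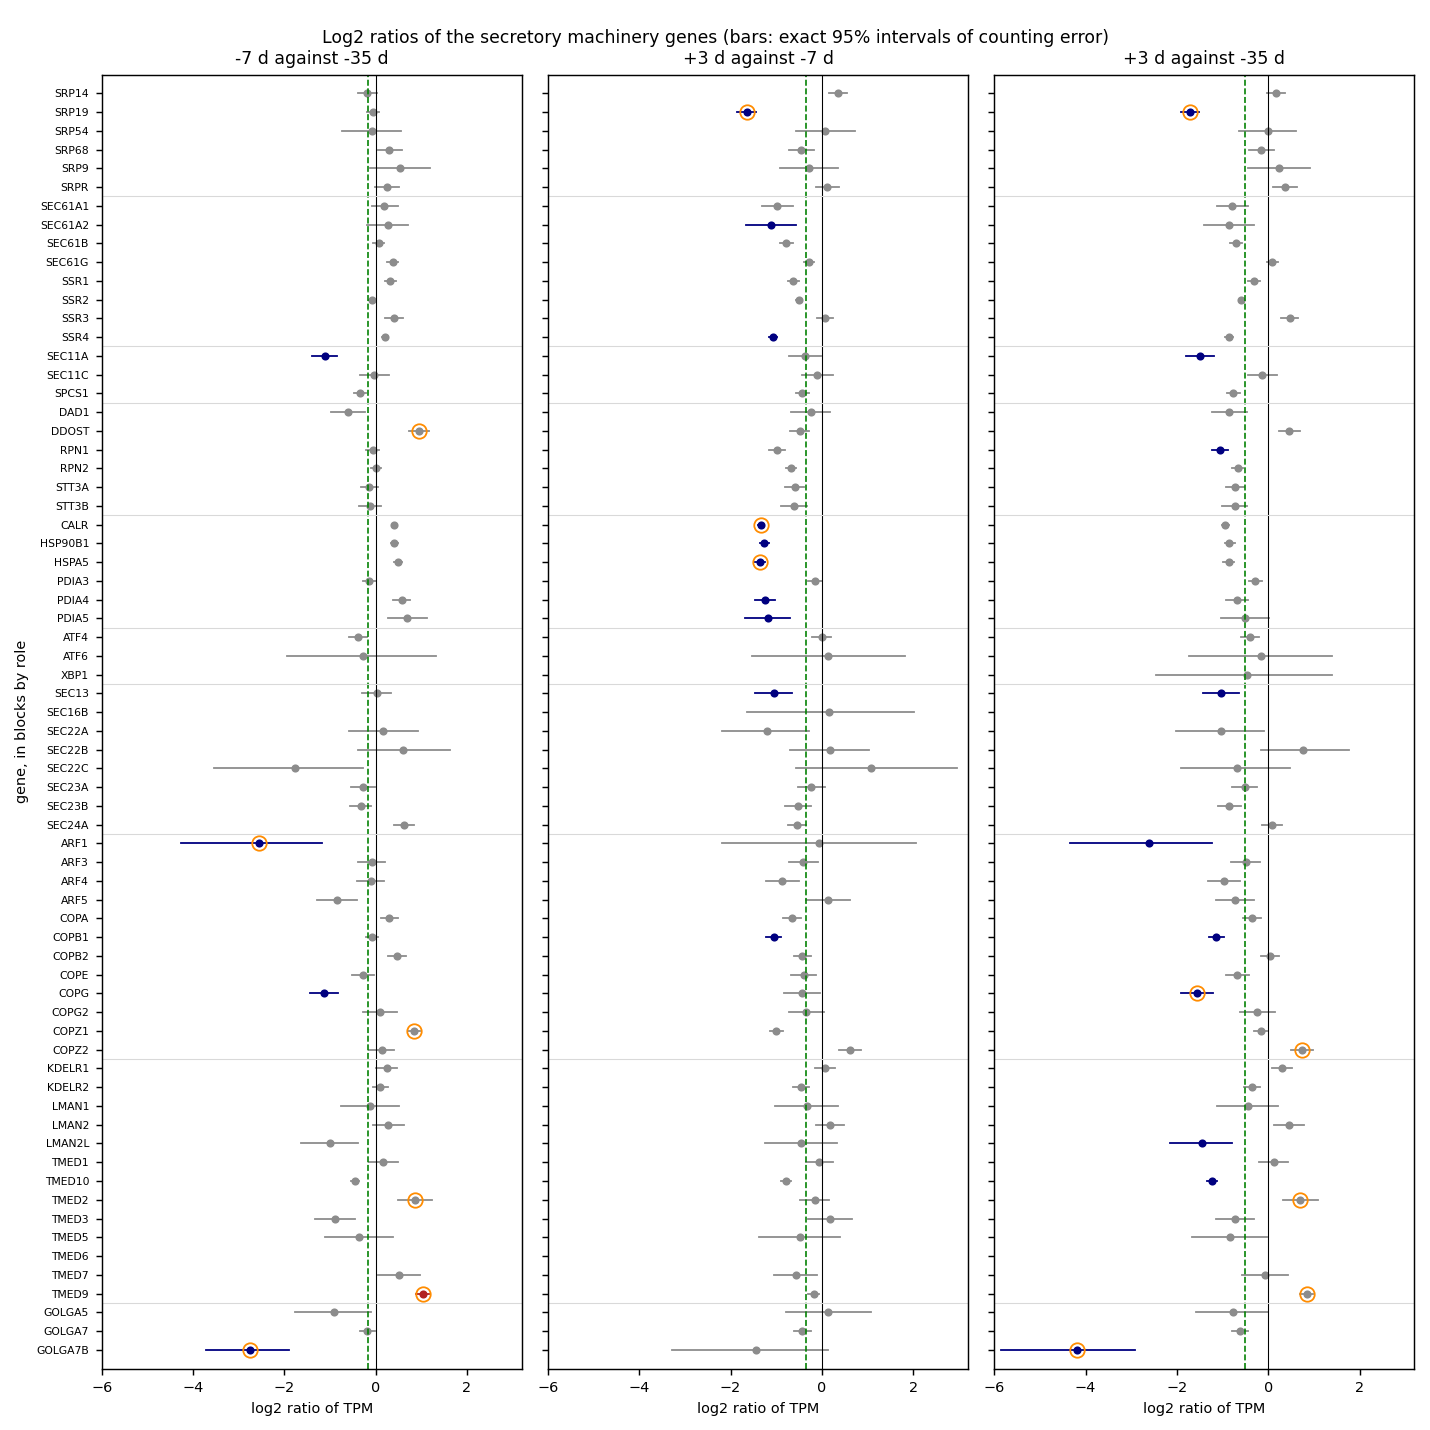
Log2 ratio of TPM for each of the 68 genes in the 3 comparisons, in blocks by role; bars are exact 95% intervals of counting error, red and blue mark genes called higher and lower, orange rings mark genes called after TMM scaling, and the dashed green line is the median of all genes averaging 5 TPM or more (−0.16, −0.34 and −0.52). No ratio is drawn where a library of the pair had 3 tags or fewer; CALR, HSPA5 and SRP19 are the 3 genes ringed in stage II.

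The TMED (p24) proteins cycle between ER and Golgi and sort cargo into vesicles. TMED9 was the only one of the 68 genes called higher on clean tag totals. It had 645, 1243 and 1145 tags at −35 d, −7 d and +3 d, or 109, 222 and 196 TPM. The 2 later libraries were both well above −35 d. Its log2 ratio was 1.03 (0.89 to 1.17) in stage I and 0.84 (0.70 to 0.99) between +3 d and −35 d. After TMM scaling both were called, at 1.22 and 1.34.

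TMED10, which had the most tags of this family, went the opposite way, at 412 TPM at −35 d, 302 TPM at −7 d and 175 TPM at +3 d. It declined at each step and was called lower between +3 d and −35 d at −1.24 (−1.34 to −1.13), but not after TMM scaling (−0.74). TMED2 was at 16.1, 29.1 and 26.0 TPM. Like TMED9 it was higher in both later libraries, and it was called only after TMM scaling, at 1.05 in stage I and 1.19 between +3 d and −35 d. TMED6 had 6, 0 and 2 tags and was not called, with an FDR of 0.0486 in stage I by the Audic-Claverie test.

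LMAN2L, a lectin related to the cargo receptor LMAN2 (VIP36), was at 12.2, 6.08 and 4.45 TPM. It was called lower between +3 d and −35 d at −1.45 (−2.16 to −0.79), and not after TMM scaling (−0.95). LMAN1 (ERGIC-53), which carries glycoproteins out of the ER, was at 7.95, 7.33 and 5.82 TPM and was not called. The KDEL receptors return chaperones such as HSPA5 and CALR from the Golgi. KDELR1 was at 49.9, 59.0 and 61.8 TPM and KDELR2 at 103, 110.3 and 80.4 TPM, with no call. In stage II KDELR1 had a log2 ratio of 0.07 (−0.15 to 0.29) and KDELR2 one of −0.46 (−0.63 to −0.28), and their ligands CALR and HSPA5 were at −1.34 and −1.35. The whole role of cargo and retrieval receptors took 11.3% (11 to 11.6), 10.6% (10.3 to 10.9) and 13.4% (13 to 13.8) of the tags on the 68 genes, and its median log2 ratio in stage II was −0.26, or 0.05 after TMM scaling.

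Among the symbols of the golgin family, GOLGA7B showed the largest change of the 68 genes. GOLGA7 and GOLGA7B are small Golgi proteins that act with palmitoyltransferases. GOLGA7B had 93, 13 and 5 tags at −35 d, −7 d and +3 d, or 15.7, 2.32 and 0.855 TPM. It was called lower in stage I at −2.76 (−3.72 to −1.91) and between +3 d and −35 d at −4.20 (−5.86 to −2.93), an 18.4-fold difference. Both calls held after TMM scaling (−2.57 and −3.70) and under the assumed coefficient of variation. GOLGA7 was at 109, 96.5 and 71.3 TPM, and GOLGA5, a coiled-coil tether, had 40, 20 and 23 tags; neither was called.

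Among the 68 genes, 9 pairs of paralogs were chosen, while other related genes, such as those of the ARF and TMED families, were not paired. The share of one gene in the tags of its pair does not depend on how the libraries are scaled. For 3 pairs the share changed little. SEC61A1 took 70.8% (exact interval 65.1 to 76.1), 69.8% (64.3 to 74.9) and 71.7% (64.0 to 78.5) of its tags with SEC61A2 at −35 d, −7 d and +3 d. STT3A took 64.9%, 64.7% and 64.9% of the tags shared with STT3B, the 2 catalytic subunits of oligosaccharyltransferase. SEC23A took 43.1%, 43.9% and 48.8% with SEC23B, with overlapping intervals.

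In the other 6 pairs the share moved beyond counting error. SEC11A took 67.5% (63.3 to 71.4), 49.4% (43.7 to 55) and 44.7% (38.8 to 50.7) with SEC11C. COPG took 69.2% (64.6 to 73.7), 49.2% (42.9 to 55.6) and 47.5% (40.5 to 54.7) with COPG2. In both pairs the share of the first gene was thus lower in both later libraries than at −35 d. COPZ1 took 76.4% (73.7 to 79.1), 84.0% (82.1 to 85.9) and 63.3% (60.3 to 66.3) with COPZ2, so that its share was highest at −7 d and lowest at +3 d. KDELR1 took 32.6% (29.6 to 35.8), 34.8% (31.8 to 38.0) and 43.4% (40 to 46.9) with KDELR2. LMAN2 took 66.0%, 82.6% and 88.0% with LMAN2L, and GOLGA7 took 87.4%, 97.6% and 98.8% with GOLGA7B. Tags that match several genes had been removed, so that a site shared by paralogs counts for neither.

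**Figure D4:**
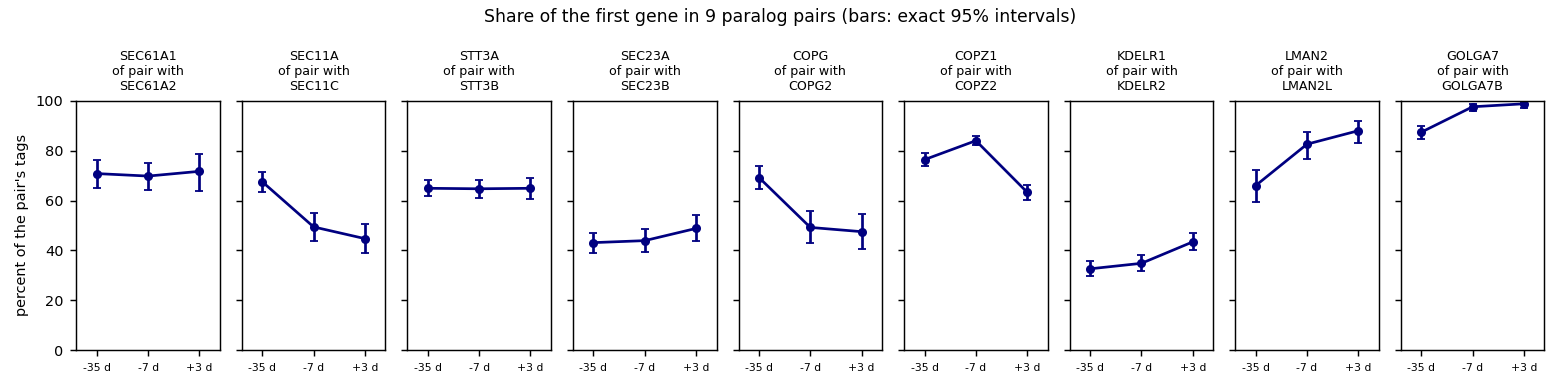
Percent of the tags of a paralog pair that belong to its first gene, against the day relative to parturition, for 9 pairs; bars are exact 95% binomial intervals. The share of SEC11A and of COPG drops between −35 d and −7 d, from 67.5% to 49.4% and from 69.2% to 49.2%, and that of STT3A stays at 64.7% to 64.9%.

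The wider pathway was read from 5 lists that hold 171 further listed genes of the unfolded protein response, ER folding, ER-associated degradation, translocation and N-glycosylation, and ER to Golgi transport. Of these, 2 were called higher and 8 lower in stage I, 3 higher and 15 lower in stage II, and none higher and 24 lower between +3 d and −35 d, of 170, 169 and 168 tested. These were 1.18% and 4.71% in stage I, 1.78% and 8.88% in stage II, and 0% and 14.3% between +3 d and −35 d, each below the share of all genes given above. After TMM scaling the counts were 4 and 4 (2.35% and 2.35%, beside 4.22% and 3.90% of all genes), 4 and 6 (2.37% and 3.55%, beside 5.87% and 4.90%), and 3 and 6 (1.79% and 3.57%, beside 6.23% and 4.94%). Under the assumed coefficient of variation none of the 171 was called in stage I or stage II. Between +3 d and −35 d 1 was called, lower. Of all genes 0.602%, 1.82% and 1.74% were called in the same order. The median log2 ratio of this wider set was −0.17, −0.34 and −0.54, close to that of all genes.

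Of the 41 further ER folding factors, 6 were called lower and 2 higher in stage II (14.6% and 4.88%, beside 10.4% and 3.12% of all genes), and 2 lower and 3 higher after TMM scaling (4.88% and 7.32%, beside 4.90% and 5.87%). Their median log2 ratio was −0.26 in stage I, with 30 of 40 genes below 0, and −0.25 in stage II, beside −0.19, with 4727 of 7570 genes below 0, and −0.31 for all genes. After TMM scaling these medians were −0.07 and 0.05, so that the list lay near all genes in both stages. P4HB, the disulfide isomerase that also forms the beta subunit of prolyl hydroxylase, was at 543, 452 and 198 TPM and fell at a log2 ratio of −1.19 (−1.29 to −1.09), a call lost after TMM scaling (−0.88). SDF2L1, an ER stress-induced partner of HSPA5, was at 8.96, 16.8 and 6.50 TPM and fell at a log2 ratio of −1.37 (−1.95 to −0.81), also after TMM scaling (−1.06). Its level was highest at −7 d, whereas that of P4HB was highest at −35 d. CNPY2 (44.1, 33.1 and 12.8 TPM) was called lower with and without TMM scaling, and TXNDC5 (169, 167 and 81.9 TPM) only without it. The 2 genes called higher in stage II were RCN3, a calcium-binding protein of the secretory pathway (21.5, 6.08 and 16.8 TPM), and QSOX1, a sulfhydryl oxidase (181, 62.8 and 132 TPM). Both had also been called lower in stage I, at −1.82 (−2.41 to −1.26) and −1.53 (−1.71 to −1.35), so that both were lowest at −7 d, the library in which CALR and HSPA5 were highest.

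Of the 17 further genes of the unfolded protein response, 1 was called higher and 1 lower in stage II, with and without TMM scaling. Each was 6.25% of the 16 tested, beside 3.12% and 10.4% of all genes, or 5.87% and 4.90% after TMM scaling. ATF3, a stress-induced factor downstream of ATF4, was at 8.96, 3.75 and 16.4 TPM and rose at a log2 ratio of 2.13 (1.44 to 2.88). CREB3L2, an ER-bound factor related to ATF6, was at 20.1, 24.1 and 9.41 TPM and fell at a log2 ratio of −1.36 (−1.84 to −0.90). Of the 21 genes of ER-associated degradation, only FAF2 was called (4.76%, beside 10.4% of all genes), lower in stage II at −1.05 (−1.59 to −0.52) and not after TMM scaling (−0.74). TRIB3, a target of ATF4 and DDIT3, had no tag at −35 d or −7 d and 3 at +3 d.

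Among the 31 further genes of translocation and N-glycosylation, 5 were called lower in stage II and none higher (16.7% and 0%, beside 10.4% and 3.12% of all genes), and 2 lower after TMM scaling, ALG8 and ALG14 (6.67%, beside 4.90%). The 5 were ALG3, ALG8 and ALG14, which build the lipid-linked sugar chain, and OSTC and TUSC3, which belong to oligosaccharyltransferase. ALG8 was at 26.5, 45.8 and 15.9 TPM and fell at a log2 ratio of −1.52 (−1.88 to −1.18), and OSTC was at 79.1, 136 and 57.0 TPM and fell at a log2 ratio of −1.26 (−1.45 to −1.07). Both peaked at −7 d, as DDOST did. MGAT1, the Golgi enzyme that starts complex N-glycans, had 43, 4 and 16 tags, and was called lower in stage I at −3.35 (−5.29 to −1.89), also after TMM scaling. MPI, which supplies mannose phosphate, had 33, 21 and 7 tags and was called lower between +3 d and −35 d, but not after TMM scaling.

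Of the 61 further genes of ER to Golgi transport, 2 were called higher and 3 lower in stage I (3.28% and 4.92%, beside 2.62% and 6.45% of all genes), and 3 higher and 1 lower after TMM scaling (4.92% and 1.64%, beside 4.22% and 3.90%). ERGIC1, a protein of the ER-Golgi intermediate compartment, was at 76.9, 174 and 105 TPM and rose at a log2 ratio of 1.18 (1.02 to 1.34). COG7, of the Golgi tethering complex COG, was at 20.1, 44.5 and 35.1 TPM and rose at a log2 ratio of 1.15 (0.82 to 1.47), while COG8 of the same complex had 39, 10 and 6 tags and fell at a log2 ratio of −1.88 (−3.05 to −0.85), a call not kept after TMM scaling. ERGIC1 and COG7 were called also after TMM scaling, at 1.37 and 1.34. BCAP29 (8.12, 2.32 and 1.71 TPM), an ER membrane protein, and YIPF6 (16.2, 16.6 and 5.82 TPM), a Golgi membrane protein, were among the lower genes between +3 d and −35 d, where 10 were called lower and none higher (16.7% and 0%, beside 16.3% and 2.33% of all genes). After TMM scaling 1 was called higher in this comparison, COG7 at 1.30, and 2 lower (1.67% and 3.33%, beside 6.23% and 4.94%). BCAP29 was one of the lower genes (−1.75), while YIPF6 was not called there (−0.98). In stage II none of the 61 was called higher and 2 lower (0% and 3.28%, beside 3.12% and 10.4% of all genes). After TMM scaling 1 was called lower in stage II (1.64%, beside 4.90%). YIPF6 was called lower in stage II at −1.52 (−2.13 to −0.93), also after TMM scaling (−1.21).

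**Figure D5:**
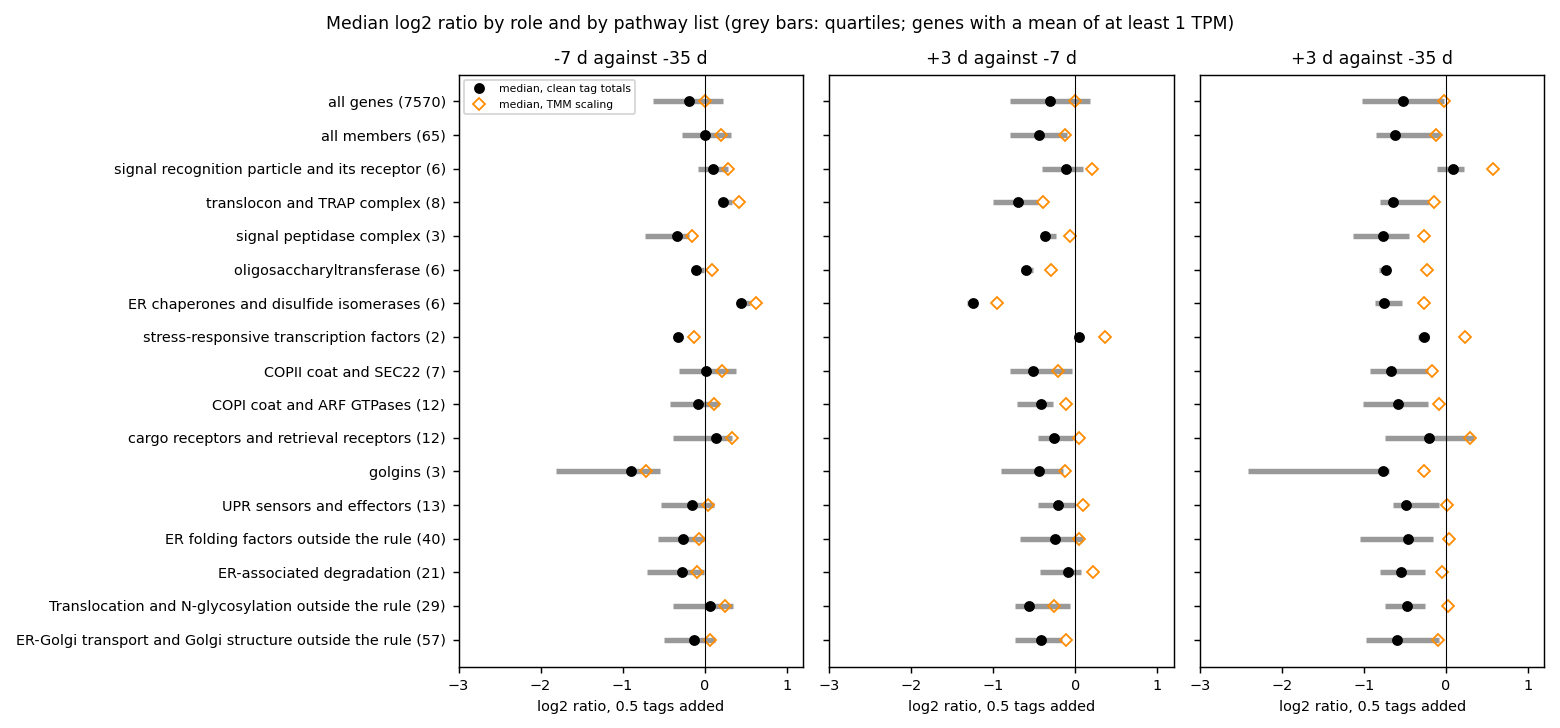
Median log2 ratio (black, clean tag totals; orange diamonds, TMM scaling) and quartiles (grey bars) of all genes, the 68 genes, their 10 roles and the 5 further pathway lists (UPR, unfolded protein response), for the 3 comparisons; the number of genes averaging 1 TPM or more is in brackets. The 6 ER chaperones and disulfide isomerases taken by the rule have the highest median of all groups in stage I (0.44) and the lowest in stage II (−1.25).

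Other cells of the tissue also secrete protein, so markers of each cell type were summed. The luminal epithelial list (10 of 14 symbols listed, EPCAM with the most tags) summed to 1675 TPM at −35 d, 1229.5 TPM at −7 d and 1012 TPM at +3 d, with GRHL2 at 0 at +3 d. Its genes did not share one direction in stage II. Of the 9 averaging 1 TPM or more, 5 had a log2 ratio above 0 and 4 below, with a median of 0.06. After TMM scaling 6 were above 0, with a median of 0.37. MUC1 was called higher in stage II at 2.16, also after TMM scaling. ELF5 was called lower at −1.19, but not after TMM scaling (−0.88). The list for plasma cells and B cells (9 of 17 symbols, mostly IGLL1) summed to 4384, 4116 and 3657 TPM, and without IGLL1 to 369, 218 and 219 TPM. The fibroblast list (12 of 14, led by COL1A1) summed to 8940.0, 6609 and 10401 TPM, the reverse of the chaperone profile. Macrophage markers (11 of 15 symbols, led by CTSS) summed to 931, 488 and 705 TPM, and without CTSS to 498, 337 and 581 TPM. Adipocyte markers (9 of 10, led by FABP4) summed to 412, 279 and 569.8 TPM, with PLIN4 at 0 at −7 d and +3 d, and endothelial markers (9 of 11, led by ENG) to 282, 349 and 427 TPM. These sums are on clean tag totals, and the median log2 ratio between +3 d and −35 d turned from −0.41 to 0.09 for plasma cells and B cells and from −0.17 to 0.33 for macrophages after TMM scaling. None of these 6 sums peaked at −7 d, and their part in the levels of the secretory machinery was not tested. The milk proteins, the defining products of mammary secretory cells, were present in every library, and all 6 were called higher in each comparison.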

How the data were processed

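The deposited files hold, per the labels and the study's methods, 2 kinds of counts: copies of each clean tag of 21 bases, and unambiguous clean tags per gene. The authors dropped tags with 1 copy and tags matching several genes, allowed 1 mismatch to CATG sites with the 17 bases that follow in transcripts of the bovine genome UMD 3.1, and scaled counts to TPM (tags relative to a fixed number of clean tags). Columns of a summary file could not be matched to samples and were not used. The 68 genes were found by symbol, and 65 of their accessions matched the current annotation (2 renamed, SRPR and COPG). Members, roles, pairs of paralogs, lists and tests were chosen with earlier results of these data known. Named were genes called with or without TMM scaling, the gene with the most tags in each role, CALR, HSPA5, HSP90B1, XBP1, ATF4 and ATF6, and up to 3 called pathway genes at each end of a comparison; other genes were picked after their values were seen.

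Libraries were compared in pairs by the Audic-Claverie test (2 times the smaller tail) with Benjamini-Hochberg adjustment over all genes with a tag in either, 0 TPM being set to 0.01; edgeR's quasi-likelihood test cannot be fitted without replicates. No fold is given where a library had 3 tags or fewer. Tested on simulated data, the test made no call on unchanged genes and missed some changed ones. The misses were slightly more than the pass mark first set, which was then lowered. The simulated counts held counting error only, as the test assumes, and no spread between pools. The absence of false calls there therefore says nothing about calls due to such spread. Alternatives were TMM factors and an exact test assuming a biological spread of 0.2 (edgeR 4.0.16, R 4.3.3), DESeq2 1.42.0 size factors, totals without genes over 1%, Fisher's exact test, a 3-fold limit, a mean of at least 5 TPM, 0.5 tags added, and pooled symbols. Python 3.11.15 and scipy 1.17.1 were used. Sequences and genome positions were not used here.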

Additional observations from a re-analysis of the deposited data

How the results depend on the processing

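Most calls depended on the scaling or on the assumed error. In stage I, the count called higher was 4 with TMM, 4 with DESeq2 factors, 0 under the assumed coefficient of variation and 0 at 3-fold, and that called lower was 2, 2, 1 and 2. Of all 8967 genes tested, 378 were called higher and 348 lower with DESeq2 factors, and 97 and 220 at 3-fold. In stage II, the count of the 68 genes called lower was 3 with TMM, 3 with DESeq2 factors, 3 without the 5 large milk protein genes, 0 under the assumed coefficient of variation and 1 at 3-fold. Of all 8784 genes tested, 413 were called lower with DESeq2 factors, 430 without the large genes and 312 at 3-fold. Between +3 d and −35 d, the count of the 68 genes called higher was 3 under each of the 3 scalings, and that called lower was 3 with TMM, 3 with DESeq2 factors, 5 without the large genes, 1 under the assumed coefficient and 3 at 3-fold. Of all 8988 genes tested, 572 were called higher and 420 lower with DESeq2 factors, 412 and 627 without the large genes, and 125 and 534 at 3-fold. The median log2 ratio of the secretory machinery became 0.20 (TMM) and 0.20 (DESeq2) in stage I, −0.13, −0.11 and, without the large genes, −0.13 in stage II, and −0.12, −0.10 and −0.25 between +3 d and −35 d. The share of tags on the 68 genes was 0.614%, 0.691% and 0.411% without SSR2, and 1.78%, 2.11% and 1.57% of listed tags without the large genes.

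Over the 65 genes averaging 1 TPM or more, ratios above 0 went from 33 to 47 in stage I, from 13 to 24 in stage II and from 15 to 29 between +3 d and −35 d with TMM. Among the 30 genes named by rule, the sign turned for SRP19 (0.14), SSR2 (0.10), RPN1 (0.12), COPB1 (0.11) and GOLGA7 (0.01) in stage I, for ATF4 (0.29), ARF1 (0.24), TMED2 (0.14) and TMED9 (0.13) in stage II, and for ATF4 (0.10), ATF6 (0.34), XBP1 (0.03) and COPZ1 (0.33) between +3 d and −35 d, none of them a called ratio. Of the ratios of these 30 genes, called or not, 53 kept direction and side of the threshold, 16 lost a call and 6 gained one. Most of these ratios had not been called on clean tag totals. TMM adds one amount to every ratio. The assumed coefficient of variation leaves the ratios as they are and widens the assumed error. Under it 65 ratios kept their side of the threshold, nearly all of them uncalled from the start, and 23 lost their call. The only calls left were those of GOLGA7B in stage I and between +3 d and −35 d. No paired analysis was possible because each time point is 1 library, and no library can be left out. Fisher's test, the mean of at least 5 TPM, 0.5 tags added and pooled symbols kept each count of calls within 1.5 times, and the mean of at least 5 TPM, the only one of these run on the medians, gave 0.02, −0.45 and −0.59. Genes with few tags, such as ARF1, ATF6 and XBP1, are limited by depth.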
